A study of Rattus norvegicus with 78 samples.

Results

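The change in hippocampal transcript levels between postnatal day 7 (P7) and postnatal day 14 (P14) was described in male rats exposed to paroxetine through their dams. Paroxetine is a selective serotonin reuptake inhibitor. The arrays of this step were 4 at P7 and 5 at P14, chosen by the region, age and treatment in the labels and by no measured value, and made up 9 of the 78 arrays of the study. All rats belonged to a selectively bred Low Responder line, rats that move little in a new environment. In the exposed groups the dams received 10 mg per kg per day in the drinking water, starting 1 week ahead of conception and ending when the pups were weaned at P21, so that both ages fell within the treatment. The control hippocampus, used beside it, came from the same line and sex at P7 and P14, with 5 arrays at each age, and the control dams drank plain water. The labels name neither litters nor array batches, so the p-values reflect array-to-array spread alone, and litter and age cannot be told apart. RNA of whole hippocampus was hybridised to single-colour oligonucleotide arrays, and fewer cells of a type and less RNA per cell cannot be told apart in such tissue. Of 26419 features tested, the brightest feature of each of 9627 named genes stood for the gene.

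In rats the week between P7 and P14 is a time of fast change in the hippocampus. Neurons have mostly settled, dendrites and synapses multiply, oligodendrocytes begin to wrap axons in myelin, astrocytes mature, and GABA turns from a depolarising to an inhibitory transmitter as neurons gain chloride-extruding transporters. Genes of dividing cells and of growing axons decline over the same days. Serotonin fibres from the raphe nuclei are present in the hippocampus during this time, and those fibres carry the transporter that paroxetine blocks.

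The P7 exposed arrays fell into 2 pairs, which bears on every value that follows. Over all features replicates 3 and 4 correlated with each other at r = 0.973 and with the P14 arrays at 0.964 to 0.967, but with replicates 1 and 2 at only 0.945 to 0.947. Replicates 1 and 2 correlated with each other at 0.957, and the P14 arrays among themselves at 0.979 to 0.984. On the first principal component of the 9 arrays, which held 37.3% of the variance, replicates 1 and 2 lay at -63.7 and -63.6, replicates 3 and 4 at -3.41 and -4.73, and the P14 arrays at 25.6 to 28.1. Replicates 3 and 4 were higher than 1 and 2 by at least 1 log2 unit, on the mean of each pair, for 287 genes and lower for 214. The mean level of the myelin list was 8.20 to 8.47 on the 4 exposed P7 arrays and 9.06 to 9.24 on the exposed P14 arrays, beside 8.12 to 8.36 and 9.16 to 9.55 on control arrays of those ages. The mean level of the immature neuron list was 11.70 to 11.73 and 11.28 to 11.35 in exposed pups, beside 12.75 to 12.90 and 11.74 to 11.96 in controls, so the exposed P7 arrays lay above the exposed P14 arrays but below every control array of either age. Results are therefore given over all 4 arrays and, where it matters, against each pair alone. What sets the pairs apart was not tested.

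**Figure D1:**
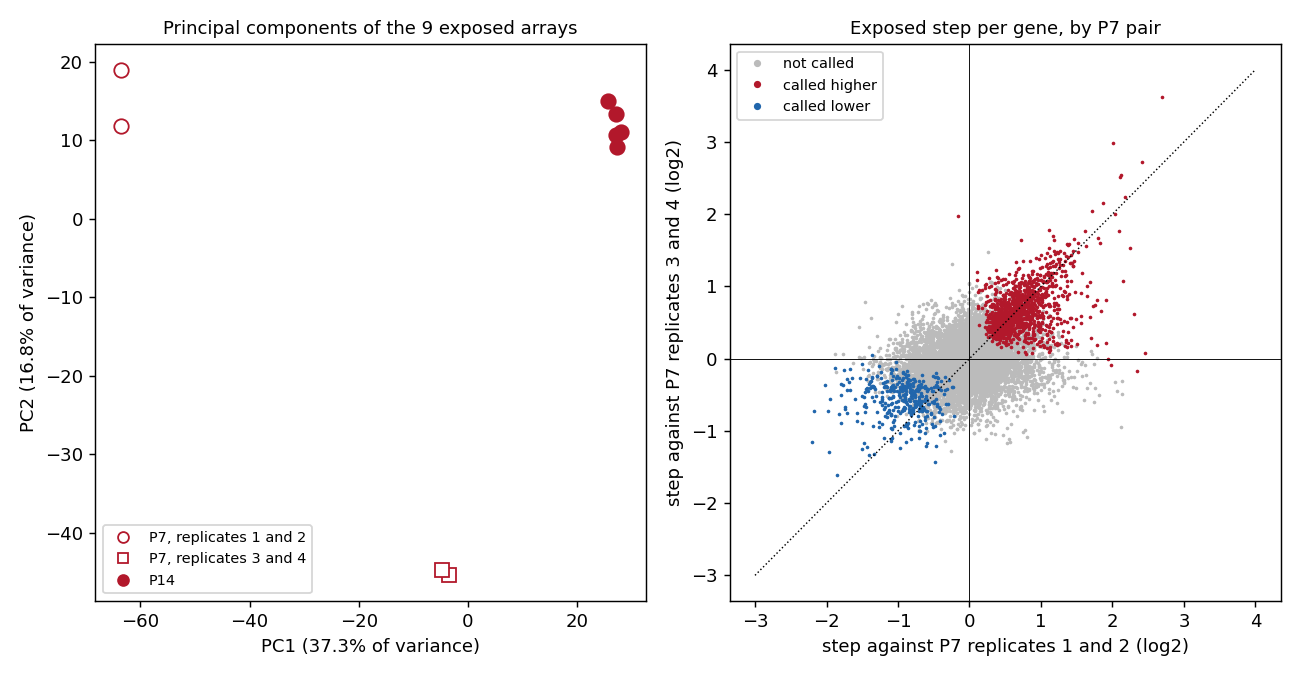
The left panel plots the first and second principal components of log2 intensity for the 9 exposed hippocampal arrays, where open circles are P7 replicates 1 and 2, open squares P7 replicates 3 and 4, and filled circles P14. The right panel plots, for 9627 genes, the log2 difference of P14 against replicates 1 and 2 (horizontal) and against replicates 3 and 4 (vertical), coloured by the call over all 4 P7 arrays; called genes lie mostly on the same side of 0 on both axes, with a wider spread along the horizontal axis.

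Measures that belong to no gene also moved with age. The array's control probe of random sequence, designed against no rat transcript, read 51.4 to 54.6 on the P7 and 48.1 to 49.3 on the P14 exposed arrays, without overlap (exact two-sided permutation p = 0.0159, adjusted over 3 array measures 0.0238), the smallest p that 4 arrays against 5 allow. The interquartile range of log2 intensity was 2.78 to 2.80 at P7 and 2.86 to 2.88 at P14 (exact permutation p = 0.0159, adjusted 0.0238), while the arrays' medians overlapped (exact permutation p = 0.413). On control arrays the probe read 43.4 to 44.3 at P7 and 43.4 to 46.2 at P14, and the interquartile range was 3.16 to 3.25 and 3.07 to 3.25, wider than on every exposed array of these ages. Bright features had higher and dim ones lower differences: the median over the dimmest of 10 equal bins of features was -0.16 and over the brightest 0.20, against 0.11 and 0.01 in the control step. The part of these measures in the gene results was not tested beyond the fits named below.

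Over the step 1221 genes rose and 366 fell (limma, Benjamini-Hochberg adjusted p under 0.05 over all features), which is 12.7% and 3.80% of the genes. Among all features 3957 passed, or 15.0%. Differences of at least 1 log2 unit were found for 152 genes that rose (1.58%) and 48 that fell (0.499%), and the P7 and P14 arrays did not overlap for 1604 genes (16.7%), of which 1226 were called. Against replicates 1 and 2 alone 1333 genes rose and 627 fell (13.8% and 6.51%), and against replicates 3 and 4 alone 840 rose and 111 fell (8.73% and 1.15%). Of the genes called over all 4 arrays, 633 that rose and 49 that fell were called the same way against both pairs. Leaving out P7 replicate 1 or 2 brought the count of falling genes to 207 and 231. When the reading of the control probe entered the fit as a covariate, 264 genes rose and 32 fell. The readings did not overlap between the exposed ages, so that fit cannot fully separate age from the reading. A call lost in it does not show that a step was absent. With only the 2 compared groups in the fit, 867 rose and 272 fell. Every difference below is P14 minus P7 in log2 intensity ± the standard error of the fit, with 4 arrays at P7 and 5 at P14. The spread behind that error was pooled over all 39 hippocampal arrays, not taken from these arrays alone. The words rose and fell are kept for genes that passed limma's test at the adjusted threshold of 0.05.

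The steepest rises belonged to genes of myelin, of signalling and of the actin cytoskeleton. Wipf3, an actin regulator, read 12.22, 11.99, 11.53 and 11.86 on the P7 arrays in the order of their replicate numbers, and 14.23, 14.17, 14.30, 14.34 and 14.10 on the P14 arrays. It rose 5.02-fold (2.33 ± 0.15, adjusted p = 2.8e-14), with more than 1 log2 unit between the highest P7 and the lowest P14 array. Other leading rises among genes brighter than the median feature were those of Mbp, Cldn11 and Mobp, all of myelin, Pvalb, the calcium buffer parvalbumin of fast-spiking interneurons (2.21 ± 0.18), Chn1, a Rac-inactivating protein (2.01 ± 0.11), Ntsr2, a neurotensin receptor found on astrocytes (1.93 ± 0.18), and Cartpt, the precursor of CART peptides (1.89 ± 0.21). In each of these 8 genes the P7 and P14 arrays did not overlap, and each was called against either P7 pair.

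Among genes brighter than the median feature the leading falls were smaller than the leading rises and of mixed kinds. Klk1b3, a kallikrein protease, read 14.04, 13.93, 12.72 and 13.17 at P7 and 11.65 to 12.01 at P14, and fell by 1.68 ± 0.23 (adjusted p = 1.3e-06). Its P7 pairs differed, so that the fall was -2.20 against replicates 1 and 2 and -1.16 against 3 and 4. Dcx, the microtubule protein doublecortin of migrating neurons, showed no such split: it read 10.46, 10.67, 10.62 and 10.48 at P7 and 9.07 to 9.34 at P14 (-1.33 ± 0.20). Other leading falls were those of the ribonuclease genes Ang, angiogenin (-1.38 ± 0.22), and Ang2 (-1.14 ± 0.17), the haemoglobin gene Hba-a3 (-1.37 ± 0.17), the matrix gene Mfap4 (-1.09 ± 0.17), Pde6h, a subunit of the cone phosphodiesterase (-1.14 ± 0.22), Sp7, a bone transcription factor (-1.07 ± 0.17), and 4930488N24Rikl, whose role is not annotated here (-1.33 ± 0.22). Fgf10, a growth factor, fell by 1.22 ± 0.28 over all arrays, but by 0.69 with an adjusted p of 0.23 against replicates 3 and 4.

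Of 25 myelin genes, 15 rose, none fell and 10 were not called, with a median of 0.62 beside 0.02 for all genes. Mbp, myelin basic protein, read 11.20, 10.81, 10.61 and 10.77 at P7 and 13.25 to 13.54 at P14, a 5.91-fold rise (2.56 ± 0.18). Mobp, another compact myelin protein, rose by 2.31 ± 0.21 and the tight junction gene Cldn11, which seals the layers of the sheath, by 2.50 ± 0.26. Mag, the adhesion protein between axon and sheath, rose by 1.71 ± 0.15, and Cnp, an early enzyme of myelinating cells, by 1.49 ± 0.12. Mog, on the outer surface of the sheath, read 7.99 to 8.76 at P7 and 8.59 to 9.23 at P14, so the groups overlapped. Its rise of 0.55 ± 0.17 was called over all arrays (adjusted p = 0.026) but not after leaving out any of 5 single arrays, with an adjusted p of up to 0.101. Both pairs of P7 arrays gave the group the same direction, with medians of 0.78 and 0.52.

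Genes of the cells that precede myelination split. Bcas1 and Gpr17, which mark oligodendrocytes on the point of maturing, rose by 1.37 ± 0.13 and 1.22 ± 0.11, and their P7 and P14 arrays did not overlap. Cspg4, the NG2 proteoglycan of precursors, read 7.75 to 8.32 at P7 and 7.55 to 8.13 at P14 and was not called (-0.18 ± 0.28). The remaining 4 of the 7 measured precursor genes were not called either.

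**Figure D2:**
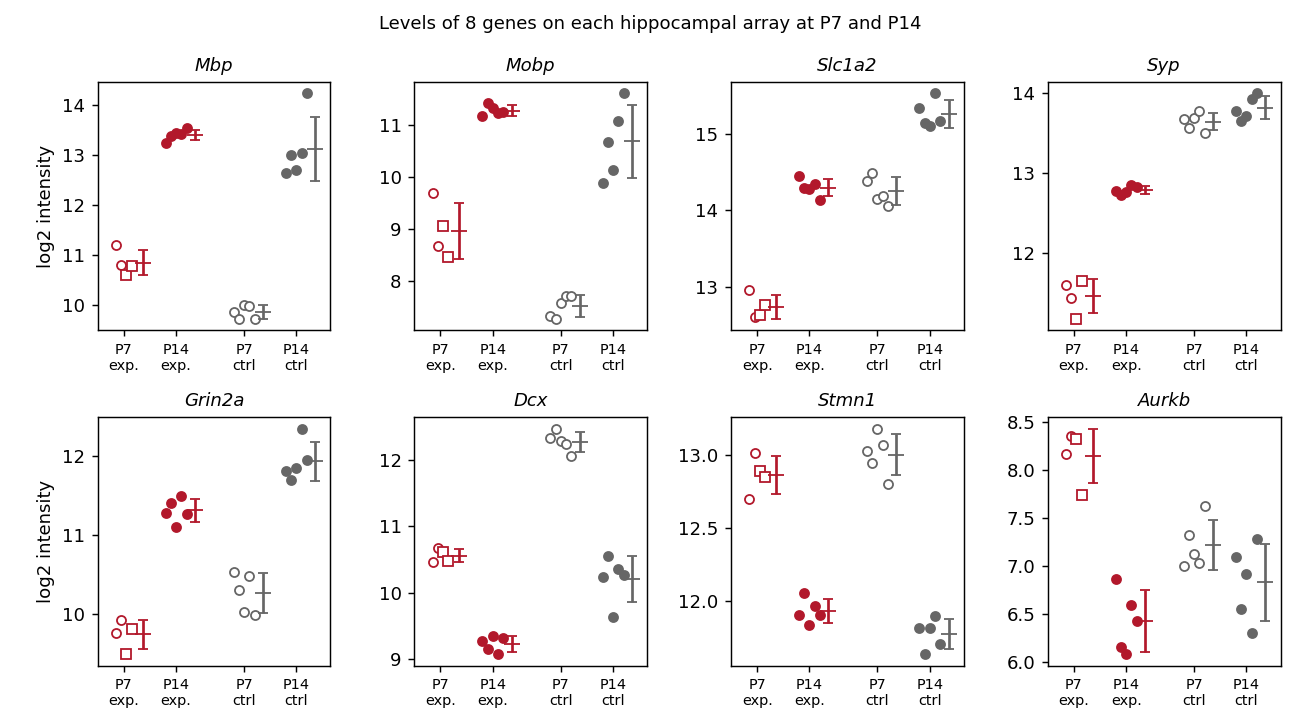
Log2 intensity of 8 genes on each hippocampal array, with exposed arrays in red and control arrays in grey, open symbols at P7 and filled at P14; squares are P7 exposed replicates 3 and 4, and bars are the mean ± SD of each group. In the exposed arrays the 2 ages do not overlap for any of the 8 genes, with Mbp, Mobp, Slc1a2, Syp and Grin2a higher and Dcx, Stmn1 and Aurkb lower at P14.

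Astrocyte genes had the highest share of calls of any list. Of 23 measured, 19 rose and none fell, with a median of 0.77. Slc1a2, the main glutamate transporter of astrocytes, read 12.95, 12.61, 12.63 and 12.76 at P7 and 14.13 to 14.46 at P14, a 2.95-fold rise (1.56 ± 0.11, adjusted p = 1.4e-12). Gfap, an intermediate filament, rose by 1.44 ± 0.13, the chaperone gene Clu by 1.39 ± 0.10, the gap junction gene Gja1 by 1.25 ± 0.10 and the water channel gene Aqp4 by 0.99 ± 0.13. The other glutamate transporter, Slc1a3, which is already abundant in radial glia, read 10.68 to 11.02 at P7 and 11.08 to 11.37 at P14, and its difference of 0.34 ± 0.12 was not called (adjusted p = 0.061). Against each P7 pair alone 17 astrocyte genes rose.

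Microglial and vascular genes moved less. Of 19 microglial genes 7 rose and 1 fell (median 0.41). Ctss, the lysosomal protease cathepsin S, read 7.11 to 7.79 at P7 and 9.22 to 9.52 at P14 and rose 3.67-fold (1.88 ± 0.12). The complement gene C1qb rose by 1.13 ± 0.18, the fractalkine receptor Cx3cr1 by 0.99 ± 0.16, Aif1 by 0.90 ± 0.25, P2ry12 by 0.76 ± 0.19 and the growth factor receptor Csf1r by 0.75 ± 0.16. Against one of the P7 pairs Aif1 and Csf1r were not called (adjusted p of 0.068 against replicates 1 and 2, and of 0.068 against 3 and 4). The microglial median was 0.69 against the first pair and 0.18 against the second.

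Endothelial and pericyte genes gave 4 rises among 19, led by the glucose transporter Slc2a1 (0.77 ± 0.11), with Cldn5 (0.37 ± 0.15), Flt1 (0.12 ± 0.22) and Pdgfrb (0.05 ± 0.16) not called. Of the rises, those of the pericyte genes Rgs5 (0.40 ± 0.12) and Vtn (0.52 ± 0.18), were lost on leaving out single arrays (adjusted p of up to 0.0963 and 0.157). Of 12 meningeal fibroblast genes 2 rose: the growth factor Igf2 (0.99 ± 0.15) and Fmod (0.61 ± 0.19), the latter lost without P7 replicate 1 (adjusted p = 0.152).

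Of 37 synaptic vesicle and release genes, 28 rose and none fell, with a median of 0.71. Syp, synaptophysin of the vesicle membrane, read 11.60, 11.44, 11.17 and 11.65 at P7 and 12.73 to 12.85 at P14, a 2.50-fold rise (1.32 ± 0.11, adjusted p = 1.0e-11). Dnm1, the dynamin that pinches off recycled vesicles, rose by 1.40 ± 0.11, Slc17a7, the vesicular glutamate transporter of hippocampal neurons, by 1.36 ± 0.11, Syn1, the vesicle-tethering synapsin I, by 1.21 ± 0.11 and Snap25, a fusion protein of the plasma membrane, by 1.05 ± 0.10. None of these 5 had overlapping groups, and each was called against either P7 pair.

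Egr1, a transcription factor that binds GC-rich sites, rose as well. Promoters of all 30 gene lists were searched for several motifs, of which E2F, SOX and TATA are not reported here. For the letters of Egr1 the release genes are described, the list with the highest share. The searched letters were GCGTGGGCG and GCGGGGGCG on both strands, in RefSeq windows of assembly GRCr8 from 250 bases before to 50 bases after the start of the gene. Of 26 release genes with a window, 7 held them (26.9%), against 361 of all 7841 genes with a window (4.60%). Endothelial and pericyte genes, with 4 rises among 19, came next with 3 of 15 windows (20.0%). The 7841 include 1049 olfactory and vomeronasal receptor genes, none of which held these letters. The 7 were Cplx1, Nsf, Syn1, Syn2, Syp, Syt1 and Vamp2, whose differences ran from 0.73 to 1.35. All were called as rises, as were 28 of the 37 release genes measured. A match is a description of letters, not a site of binding. Over all genes, 20.5% of those with the letters and 11.8% of those without rose, which stands as a count across genes with no test. Egr1 read 12.06 to 12.48 at P7 and 13.35 to 13.52 at P14 and rose by 1.22 ± 0.11. The windows of Syn1 (chrX:3725495-3725794, plus strand) and Syp (chrX:17536400-17536699, minus strand) are shown as the synaptic examples, 5′ to 3′ along the gene, with the matches, read here on the opposite strand, in capitals. The 2 matches of Syn1 start 240 bases before and at base 42 after the gene's start, and that of Syp 65 bases before it.
Syn1: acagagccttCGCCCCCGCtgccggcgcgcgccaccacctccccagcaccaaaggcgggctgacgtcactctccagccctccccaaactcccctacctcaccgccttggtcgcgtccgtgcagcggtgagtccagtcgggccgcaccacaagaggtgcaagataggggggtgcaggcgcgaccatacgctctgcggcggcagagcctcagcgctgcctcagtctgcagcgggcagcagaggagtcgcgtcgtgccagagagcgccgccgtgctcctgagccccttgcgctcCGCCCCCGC
Syp: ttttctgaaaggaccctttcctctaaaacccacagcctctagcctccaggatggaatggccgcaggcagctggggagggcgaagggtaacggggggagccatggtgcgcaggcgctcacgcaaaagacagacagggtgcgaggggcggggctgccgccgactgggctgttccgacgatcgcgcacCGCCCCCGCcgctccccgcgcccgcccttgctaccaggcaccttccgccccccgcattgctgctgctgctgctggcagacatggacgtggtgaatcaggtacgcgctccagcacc

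On the postsynaptic side 19 of 28 scaffold and kinase genes rose and none fell (median 0.70). Camk2a, the kinase that is a main protein of the postsynaptic density, read 14.05, 13.72, 13.61 and 13.55 at P7 and 14.87 to 15.18 at P14 (1.34 ± 0.11). Its inhibitor Camk2n1 rose by 1.14 ± 0.11, the dendritic protein Ddn by 1.18 ± 0.10, the spine protein Baiap2 by 1.12 ± 0.12, the calmodulin-binding neurogranin gene Nrgn by 0.98 ± 0.12 and Dlg4, which encodes the scaffold PSD-95, by 0.74 ± 0.11.

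The receptors themselves moved unevenly. Of 19 glutamate receptor genes 8 rose and none fell (median 0.40). Grin2a, the NMDA receptor subunit of mature synapses, read 9.49 to 9.92 at P7 and 11.10 to 11.49 at P14, a 2.95-fold rise (1.56 ± 0.13). Grin2b, the subunit typical of younger synapses, read 11.06, 11.21, 11.11 and 11.37 at P7 and 11.11 to 11.49 at P14, so its groups overlapped and it was not called (0.18 ± 0.14, adjusted p = 0.42). The obligatory subunit Grin1 rose by 0.92 ± 0.11 and the AMPA receptor subunits Gria3 and Gria1 by 0.87 ± 0.13 and 0.81 ± 0.12.

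Of 17 genes of GABA receptors and chloride transport 10 rose and none fell (median 0.50). The metabotropic receptor gene Gabbr2 rose by 0.70 ± 0.11. Slc12a5, the chloride extruder KCC2 that makes GABA inhibitory, read 8.37, 9.44, 8.93 and 9.14 at P7 and 9.97 to 10.21 at P14, and rose by 1.09 ± 0.16.

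Channel and calcium genes followed. Of 39 sodium and potassium channel genes 25 rose and 2 fell (median 0.57). The rises included the potassium channel subunits Kcnab2 (1.24 ± 0.13), Kcnj6 (1.04 ± 0.13), Kcna2 (0.93 ± 0.13) and Kcna1 (0.55 ± 0.11), while the sodium channel gene Scn1a read 6.83 to 8.33 at P7 and 6.63 to 7.78 at P14 and was not called. Of 21 calcium buffer and ion pump genes 15 rose and none fell (median 0.77), among them the sodium pump subunit Atp1b1 (1.27 ± 0.10), the calcium sensor hippocalcin, Hpca (1.26 ± 0.11), and the calcium pump Atp2b2 (1.04 ± 0.10). Calb1, the buffer of granule cells, had overlapping groups and was not called (0.33 ± 0.16).

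Interneuron genes were led by Pvalb, which read 6.80, 6.35, 6.20 and 6.81 at P7 and 8.53 to 8.92 at P14 and rose 4.62-fold. Of 20 measured, 7 rose and 1 fell, with a median of 0.26. Gad2, one of the 2 GABA-synthesising enzymes, rose by 1.10 ± 0.15, and Gad1, the other, was not called (0.30 ± 0.17). Kcnc1, a channel of fast-spiking cells, rose by 0.99 ± 0.13. Its relative Kcnc2 read 8.84 and 8.76 on P7 replicates 1 and 2 but 10.00 and 9.75 on replicates 3 and 4, beside 10.01 to 10.19 at P14, so its rise of 0.80 ± 0.18 was 0.26 with an adjusted p of 0.45 against the second pair. Sst, somatostatin, rose by 0.42 ± 0.12, a call that ended without P7 replicate 2 (adjusted p = 0.0747).

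Markers of hippocampal principal neurons gave 3 rises among 13 and no falls (median 0.00): Wfs1 of CA1 cells (1.59 ± 0.14), Dkk3 (1.26 ± 0.12) and the transcription factor Neurod2 (0.65 ± 0.12). Markers of neighbouring regions, measured as a check of the dissection, gave 4 rises and 1 fall among 16 (median -0.05), and their mean level was 8.13 to 8.33 on P7 arrays and 8.19 to 8.43 on P14 arrays. The cortical markers Rasgrf2 and Lamp5 rose by 1.14 ± 0.21 and 1.09 ± 0.17, and Slc17a6, the vesicular glutamate transporter of thalamus, fell by 1.11 ± 0.20. Ppp1r1b, abundant in striatum, read 8.81 and 8.74 on P7 replicates 1 and 2, 10.18 and 9.86 on replicates 3 and 4, and 10.09 to 10.32 at P14. Its rise of 0.79 ± 0.20 was lost against replicates 3 and 4 (adjusted p = 0.68) and without replicate 2 (adjusted p = 0.0545).

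Few genes of the extracellular matrix around synapses were called. Tnr, tenascin-R of mature nets, rose by 0.93 ± 0.12 and the hyaluronan-binding gene Itih3 by 0.85 ± 0.17, and of 9 measured 3 rose and 1 fell. The third rise, that of brevican, Bcan (0.35 ± 0.11), and the fall of Ncan, neurocan of the juvenile matrix (-0.31 ± 0.11), did not survive leaving out single arrays (adjusted p of up to 0.103 and 0.142). Acan, aggrecan, read 7.46 to 8.95 at P7 and 8.88 to 9.16 at P14 and was not called (0.81 ± 0.30, adjusted p = 0.068). Axon guidance genes had no common direction, with 4 rises and 1 fall among 18. The adhesion genes Nrcam (0.73 ± 0.13) and Cntn1 (0.62 ± 0.11) and the receptor Epha7 (0.81 ± 0.13) rose, while the guidance cue Sema3a (0.23 ± 0.28) and the receptor Robo1 (0.04 ± 0.12) were not called.

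Of 21 immature neuron genes, 10 fell, none rose and 11 were not called, with a median of -0.38. Stmn1, the microtubule-destabilising stathmin, read 12.70, 13.01, 12.89 and 12.85 at P7 and 11.84 to 12.05 at P14 and fell by 0.93 ± 0.09 (adjusted p = 2.3e-09). Dpysl5, of growing axons, fell by 0.85 ± 0.12, and St8sia2, which makes the polysialic acid of young neurons, by 1.64 ± 0.29 from 6.66 to 7.93 at P7 to 5.38 to 6.27 at P14. Gap43, the growth cone protein, did not pass: it read 12.21 to 12.34 at P7 and 11.88 to 12.13 at P14 (-0.24 ± 0.12, adjusted p = 0.20). The fall of the transcription factor Sox11 (-0.59 ± 0.20) was lost on leaving out any of 7 single arrays (adjusted p of up to 0.104). Against the P7 pairs 8 and 9 genes of the list fell and the medians were -0.35 and -0.49.

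Of 18 cell cycle genes, 6 fell, none rose and 12 were not called (median -0.47). Against the single P7 pairs 4 and 3 fell. Aurkb, a mitotic kinase, read 8.17, 8.36, 8.32 and 7.74 at P7 and 6.07 to 6.86 at P14, a 3.31-fold fall (-1.73 ± 0.29). Cdc20, which triggers anaphase, fell by 1.16 ± 0.19, the nucleotide reductase subunit Rrm2 by 1.00 ± 0.28 and the replication gene Mcm7 by 0.72 ± 0.19. Rrm2 lost its call against either P7 pair (adjusted p of 0.054 and 0.075) and Mcm7 against replicates 1 and 2 (adjusted p = 0.13). Among chromatin enzymes the maintenance DNA methyltransferase Dnmt1 alone was called of 8 measured (-0.53 ± 0.16), and lost its call on leaving out any of 4 single arrays (adjusted p of up to 0.0869).

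Of 21 glycolysis and glucose transport genes 17 rose and none fell (median 0.71). Eno2, the neuronal enolase, read 9.66 to 10.03 at P7 and 11.05 to 11.30 at P14 (1.34 ± 0.11), and Gpi (0.92 ± 0.10), Aldoa (0.87 ± 0.10), Pkm (0.85 ± 0.10) and the hexokinase Hk1 (0.64 ± 0.12) rose too. Of 41 oxidative phosphorylation genes 23 rose and none fell (median 0.39), led by the ATP synthase subunit Atp5f1a, which read 11.33, 11.54, 11.46 and 11.46 at P7 and 11.95 to 12.27 at P14 (0.65 ± 0.10). Another ATP synthase subunit, Atp5pb, rose by 0.77 ± 0.14 and the cytochrome oxidase subunit Cox4i1 by 0.72 ± 0.12, whereas Cox6c was not called (0.25 ± 0.10). With the control probe's reading as a covariate limma called 0 of the 41 and 4 of the 21, with medians of 0.35 and 0.53 beside 0.39 and 0.71 without it. Because reading and age moved together, the lost calls do not show that these steps were absent.

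Ribosomal protein genes were nearly level. Of 65 measured 6 fell and none rose (median -0.15), and 16 fell after quantile normalization. Examples were Rps20 (-0.58 ± 0.15), Rpl28 (-0.50 ± 0.11), Rps24 (-0.49 ± 0.13) and Rpl32 (-0.42 ± 0.12), none of which was called against P7 replicates 3 and 4 alone, while Rps6 read 11.28 to 11.53 at P7 and 11.27 to 11.66 at P14 (0.04 ± 0.10). Cholesterol synthesis genes, whose product builds myelin and membranes, gave 4 rises and 1 fall among 23 (median -0.01). The regulator Srebf2 rose by 0.49 ± 0.12 and Pmvk, a kinase of the mevalonate pathway, by 0.96 ± 0.19. Sqle, which oxidises squalene, was not called (-0.14 ± 0.15).

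**Figure D3:**
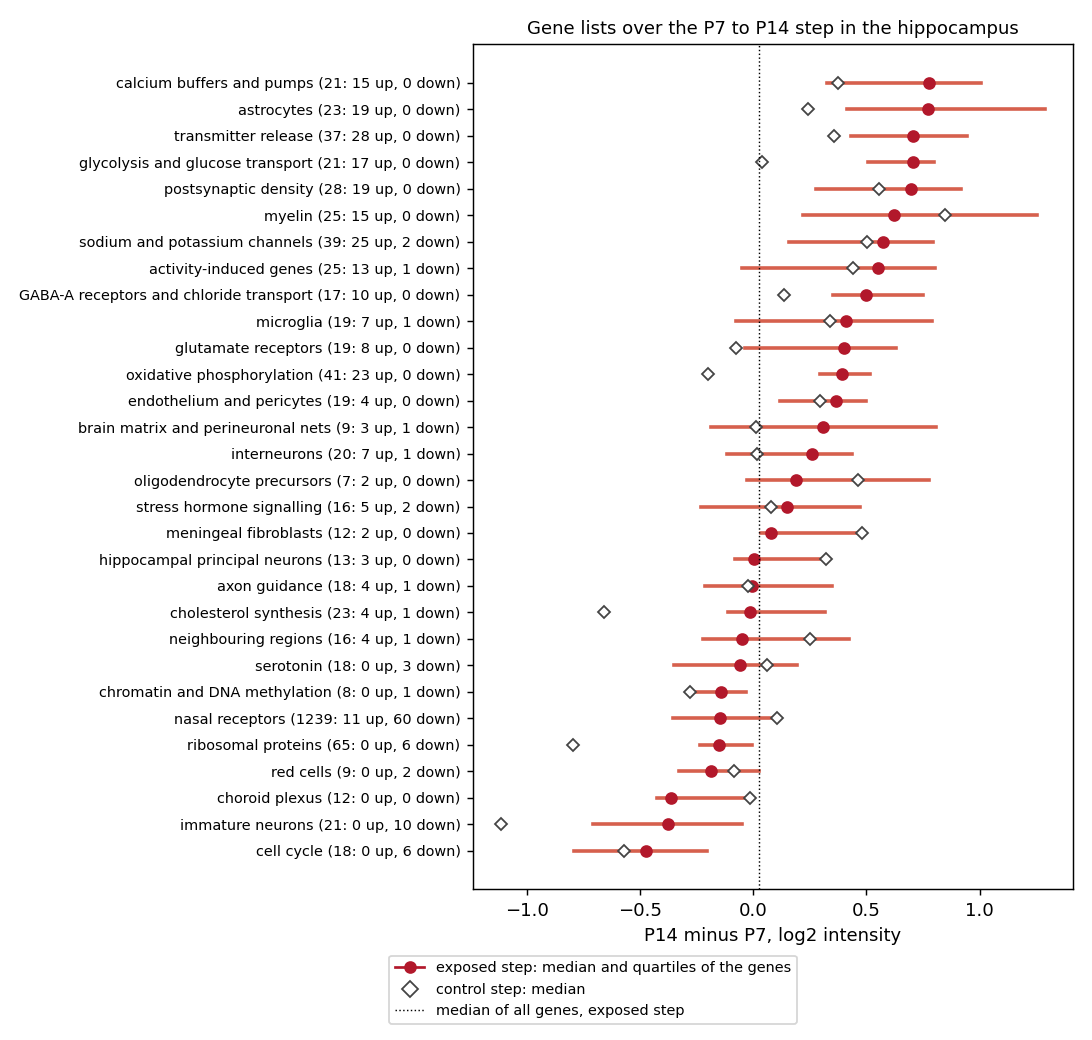
Median log2 difference, P14 minus P7, of the 30 gene lists in the exposed hippocampus (red points, with bars from the lower to the upper quartile of the genes) and in the control hippocampus (open diamonds); the dotted line is the median of all genes in the exposed step, and the counts after each name are genes measured, risen and fallen in the exposed step. Astrocyte, synapse, glycolysis and myelin lists lie to the right and cell cycle and immature neuron lists to the left, and the control diamonds lie far to the left of the red points for ribosomal proteins, immature neurons, glycolysis, cholesterol synthesis and oxidative phosphorylation.

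Of 25 genes that neurons switch on when active, 13 rose and 1 fell (median 0.55). Nptx1, a secreted pentraxin of synapses, read 10.92 to 11.32 at P7 and 12.35 to 12.61 at P14 (1.39 ± 0.11). Nr4a1, an immediate-early nuclear receptor, rose by 1.04 ± 0.13 and Vgf, a secreted neuropeptide precursor, by 1.16 ± 0.14. Fos itself was dim, at 6.39 to 7.06 at P7 and 6.69 to 6.95 at P14, and was not called (0.20 ± 0.20). Arc rose by 0.63 ± 0.19, but its P7 replicate 3 read 6.88 beside 7.71 to 8.18 on the other P7 arrays, and without it the call was lost (adjusted p = 0.158).

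The letters TGACGTCA, the full cyclic AMP response element bound by CREB, lay in 5 of 18 windows of the activity-induced genes (27.8%) and in 195 of the 7841 windows (2.49%). The share of 27.8% was the highest of the 30 lists searched, followed by 1 of 7 windows of the matrix genes (14.3%). None of the 1049 windows of olfactory and vomeronasal receptor genes held them. Of those 5 genes Vgf and the granin gene Scg2 rose (1.16 and 0.55), and Btg2, Dusp1 and Ier2 were not called. The Vgf window (GRCr8 chr12:25276971-25277270, minus strand) is shown for the gene with the larger rise, with the match, which starts 90 bases before the gene's start, in capitals.
Vgf: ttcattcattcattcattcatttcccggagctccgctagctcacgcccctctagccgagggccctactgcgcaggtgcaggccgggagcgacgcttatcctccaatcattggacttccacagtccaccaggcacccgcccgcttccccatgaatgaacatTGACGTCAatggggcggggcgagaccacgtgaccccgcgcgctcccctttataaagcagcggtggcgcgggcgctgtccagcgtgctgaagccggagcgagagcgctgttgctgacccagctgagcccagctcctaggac

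Serotonin genes, which bear on the drug's target, were mostly dim and not called. Of 18 measured 3 fell and none rose (median -0.06). S100a10, the p11 protein that binds serotonin receptors, read 11.45 to 11.60 at P7 and 10.52 to 10.83 at P14 and fell by 0.87 ± 0.15. Slc6a4, the transporter that paroxetine blocks, read 6.95, 7.53, 7.08 and 7.31 at P7 and 6.31 to 6.97 at P14 (-0.66 ± 0.21, adjusted p = 0.028). Tph2, the enzyme of neuronal serotonin synthesis, read 6.22 to 7.54 and 5.69 to 6.50 (-0.85 ± 0.30, adjusted p = 0.047). For both genes the P7 and P14 arrays overlapped, and both calls were lost on leaving out single arrays (adjusted p of up to 0.118 and 0.221). The serotonin receptor gene Htr1a read 8.13 to 8.50 and 8.54 to 8.75 and was not called (0.37 ± 0.14, adjusted p = 0.079).

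Stress hormone genes gave 5 rises and 2 falls among 16. The mineralocorticoid receptor Nr3c2 rose by 0.53 ± 0.13, the CRH-binding protein Crhbp by 0.67 ± 0.14 and the glucocorticoid-induced Tsc22d3 by 0.74 ± 0.18. The glucocorticoid receptor Nr3c1 rose by 0.75 ± 0.25 with overlapping groups, a call lost without P7 replicate 1 (adjusted p = 0.224). Ucn, urocortin, fell by 0.66 ± 0.19, but read 10.86 and 11.48 on P7 replicates 1 and 2, 10.34 on both others and 9.91 to 10.26 at P14 (adjusted p = 0.59 against replicates 3 and 4).

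The last 3 lists held markers that the hippocampus itself should carry little of. Of 12 choroid plexus genes none was called by limma, with a median of -0.36 and a mean level of 8.23 to 8.49 at P7 and 7.89 to 8.18 at P14. The bright marker Ttr, transthyretin, read 12.27 to 12.62 at P7 and 11.94 to 12.16 at P14 (-0.41 ± 0.16, adjusted p = 0.089, and 0.02 after quantile normalization). Of 9 red cell genes 2 fell, among them Hbb-b1 (-0.60 ± 0.13), while Hbb read 12.39 to 12.70 and 12.13 to 12.39 (-0.32 ± 0.12, not called). Of 1239 olfactory and vomeronasal receptor genes, which brain hardly expresses, 60 fell and 11 rose (median -0.15). Among all 9627 genes 366 fell (3.80%) and 1221 rose (12.7%). The mean level of the receptor genes moved from 6.38 to 6.46 at P7 to 6.28 to 6.31 at P14. Against P7 replicates 1 and 2 they gave 62 rises and 94 falls, and against replicates 3 and 4, 1 rise and 20 falls. Of all genes 13.8% rose and 6.51% fell against the first pair, and 8.73% and 1.15% against the second. The part of these shifts in the results on other dim genes was not tested.

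The same step in control pups gave 962 rises and 1156 falls (9.99% and 12%). Of 725 genes called in both arms 592 moved the same way, 487 up and 105 down, and 133 moved in opposite directions. The 2 steps share no arrays and correlated at r = 0.324 across genes, which are not independent replicates. For some genes with large steps no difference between the arms was called, which does not show that the steps were equal. Grin2a rose by 1.67 in controls beside 1.56, Wfs1 by 1.61 beside 1.59, Cnp by 1.56 beside 1.49 and Stmn1 fell by 1.23 beside 0.93.

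A difference between the steps was called for 1404 genes, 1088 with the higher value in the exposed step and 316 with the lower (11.3% and 3.28%). Control P14 arrays also fell into 2 sets on the first component of the hippocampal arrays, replicates 1 to 3 and replicates 4 and 5, against which 1088 and 316 became 1367 and 385, and 623 and 332. With the control probe's reading as a covariate 98 and 25 were called. Differences named here were called with each P7 pair, each P14 control set and each single array left out, unless said otherwise.

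**Figure D4:**
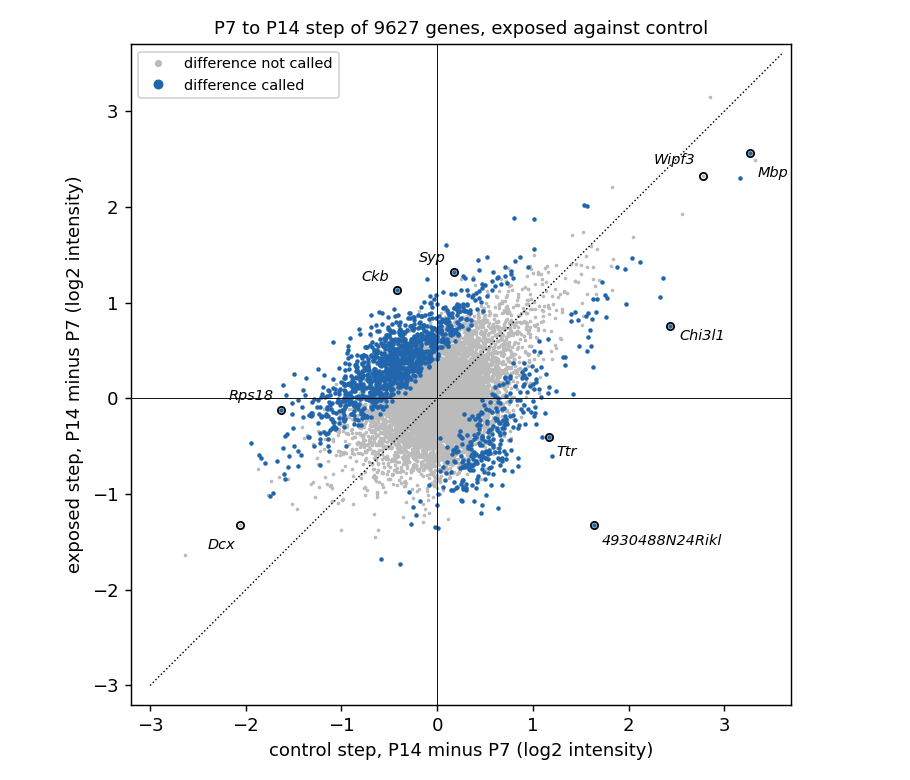
Log2 difference, P14 minus P7, of 9627 genes in the control hippocampus (horizontal) and in the exposed hippocampus (vertical); blue points are the genes whose 2 steps differed by limma's interaction test, open circles mark 9 named genes, and the dotted line is equality. Of the 1404 blue points 1088 lie above the line.

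Ribosomal protein, respiratory, cholesterol, immature neuron, glycolysis and astrocyte genes had most of their called differences on the higher side in the exposed step, while their control steps ran in different directions. A higher step was not a higher level: the mean of each list was lower in exposed pups at both ages. The mean of all genes was lower too, 7.92 beside 8.09 in controls at P7 and 7.97 beside 8.08 at P14. These lists are brighter than that mean, and the brightest bin of all features had a median step of 0.20 in exposed and 0.01 in control pups. The part of this array-wide shift in the list differences was not tested. The glycolysis mean was 10.68 beside 12.16 in controls at P7 and 11.33 beside 12.23 at P14. The ribosomal mean was 10.90 beside 11.63 at P7 and 10.77 beside 10.83 at P14, where the arrays overlapped. Respiratory means also overlapped at P14. Among ribosomal protein genes 59 of 65 fell in controls (median -0.80) beside 6 in the exposed arm, and the difference was called as higher in the exposed step for 44 and lower for 1. Rps18 fell by 1.63 in controls and was at -0.12 ± 0.11 in exposed pups (difference 1.51 ± 0.16, adjusted p = 5.9e-09), and Rpl8 and Rps14 had differences of 1.76 and 1.58. Oxidative phosphorylation genes gave 25 called differences of 41, all higher in the exposed step, with Cox4i1 at 0.72 in exposed and -0.51 in control pups and Atp5f1a at 0.65 and -0.51. Cholesterol synthesis genes gave 13 of 23, all higher, where 15 had fallen in controls. Immature neuron genes gave 10 of 21, all higher: Gap43 fell by 1.09 in controls beside -0.24, and Dpysl5 by 1.59 beside -0.85. In controls 4 of the 21 glycolysis genes rose and 3 fell, and 9 of the 23 astrocyte genes rose and 4 fell. Their differences were called for 14 and 14, all higher in the exposed step, among them Eno2 (0.90), Gja1 (0.96) and Slc1a3 (0.82).

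Release genes were mixed: of 37, the difference was called as higher in the exposed step for 10 and lower for 2. Syp read 13.50 to 13.78 on control P7 arrays and 13.66 to 14.00 on control P14 arrays, above every exposed array at either age. Its control step of 0.17 was not called (exposed minus control step 1.15 ± 0.14, adjusted p = 3.8e-07), whereas Snap25 rose by 1.78 in controls beside 1.05 (difference -0.73). Lower values in the exposed step were also called for 6 of 25 myelin genes and a higher one for 1. Mbp, the exception in stability, rose by 3.27 in controls beside 2.56 (difference -0.71, adjusted p = 0.047, and up to 0.127 on leaving out single arrays). Kcna1 rose by 1.61 in controls beside 0.55, and Chi3l1, a secreted glycoprotein of reactive astrocytes, by 2.43 beside 0.76. The exposed rise of Chi3l1 ended without P7 replicate 4 (adjusted p = 0.0623) and was not called against replicates 1 and 2.

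Some genes were called in opposite directions. Higher in exposed and lower in control pups were 117 genes, and 16 were the reverse. Ckb, brain creatine kinase, read 9.86 to 10.36 at P7 and 11.00 to 11.40 at P14 in exposed pups (1.13 ± 0.12) and fell by 0.42 in controls. Gpx4, the lipid peroxide reductase, rose by 0.59 ± 0.14 and fell by 1.09, although its exposed rise was not called against P7 replicates 3 and 4 (adjusted p = 0.13), and the gene's median feature was at 0.37 (adjusted p = 0.33). The tubulin gene Tuba3b rose by 0.63 ± 0.19 and fell by 0.92, with its exposed call lost without P7 replicate 2 (adjusted p = 0.102). Stub1, a ubiquitin ligase, rose by 0.72 ± 0.11 in exposed and fell by 0.81 in control pups.

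The reverse was seen for 4930488N24Rikl, which read 9.80 to 10.13 at P7 and 8.28 to 8.98 at P14 in exposed pups and 5.99 to 6.53 at P7 and 7.31 to 8.70 at P14 in controls (difference -2.96 ± 0.31, adjusted p = 5.7e-09). Pde6h fell by 1.14 ± 0.22 and rose by 0.63 in controls. The lipoxygenase gene Alox15 fell by 0.60 ± 0.20 and rose by 1.20, with its exposed call lost without P7 replicate 1 (adjusted p = 0.176). Ttr rose by 1.17 in controls beside -0.41 (difference -1.58, adjusted p = 3.3e-06). The mean level of the choroid plexus list was 7.61 to 7.86 on control P7 arrays, below all exposed P7 arrays, and 7.65 to 7.85 on control P14 arrays.

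In the amygdala of exposed pups, fitted apart on its own arrays, the step from 4 P7 arrays to 5 P14 arrays gave 1257 rises and 2301 falls (13.1% and 23.9%). There 12 of 25 myelin genes and 12 of 23 astrocyte genes rose, and 18 of 21 immature neuron genes and 11 of 18 cell cycle genes fell. Release genes gave 5 rises and 10 falls among 37, beside 28 and 0 in the hippocampus. In the amygdala these counts lay near the shares of all genes, 13.1% and 23.9%. The difference between the regions was not tested.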

How the data were processed

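The authors' deposited value table holds 1 linear intensity per feature and array, and its normalization is not given in the sources used here. The values were used as deposited, on the log2 scale with no pseudocount. Of 26419 features, 9747 were named through RefSeq accessions (GRCr8), and the brightest feature stood for each of 9627 genes. limma 3.58.1 (R 4.3.3) was fitted to all 39 hippocampal arrays with group as the only term, and the amygdala was fitted apart. Benjamini-Hochberg adjustment ran over all features at 0.05, and every adjusted p comes from limma unless an exact test is named. The number of arrays limits the precision. In simulated data of the exposed step 68 of 100 planted changes of 1 log2 unit and 13 of 100 of 0.5 were recovered, with 6 false calls; for the difference between steps 38 and 2 of 100 were recovered, with 1 false call. The simulated noise was independent between arrays, without the P7 pairs, and no other feature had a step. Recovery and false calls in the real arrays may therefore differ from these figures. Genes, gene lists and alternatives were chosen with earlier results of these data known. Named genes were the 10 largest rises and falls (called, not overlapping, brighter than the median feature), up to 4 called members of each list with the smallest p plus fixed members, the 8 largest differences between steps each way and the 6 largest in opposite directions, of which a few are not reported here. The authors' deposited comparison tables, with 312 per-array columns whose names match no label, were not used.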

Additional observations from a re-analysis of the deposited data

Results flagged for a closer look

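The 2 steps differed, by limma's interaction test, for 1404 genes. The 6 named genes called in opposite directions had differences, exposed minus control step, of -2.96 for 4930488N24Rikl, -1.80 for Alox15, -1.78 for Pde6h, 1.67 for Gpx4, 1.55 for Ckb and 1.55 for Tuba3b.

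The control probe of random sequence lay outside the gene comparisons and read 52.97 ± 1.61 (SD, n = 4) on the exposed P7 and 48.57 ± 0.44 (SD, n = 5) on the exposed P14 arrays, above the control arrays of the same ages.

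Single arrays stood far from the others of their group in 17 of 298 groups of arrays tested over the genes named, and chance alone would mark about 1 in 20. At P7 the lowest array read 6.19 for Cartpt, 7.51 for Csf1r, 6.76 for Lamp5, 8.01 for Mcm7 and 7.97 for Ntsr2, and the highest 9.68 for Gad1, 9.09 for Kcnc1 and 10.54 for Rps20. At P14 the lowest read 12.15 for Camk2n1, 11.11 for Grin2b, 10.01 for Kcnc2 and 10.76 for Tuba3b, and the highest 13.70 for Bcan, 9.37 for Crhbp, 12.39 for Hbb, 10.62 for Igf2 and 9.90 for Rps24, all in log2 intensity.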

How the results depend on the processing

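For the exposed step, 3957 features became 589 with the control probe's reading as a covariate and 2088 against P7 replicates 3 and 4 alone, and 508 were called at 1 log2 unit or more. Rising genes, 1221, became 264 with that covariate. Falling genes, 366, became 32 with it, 243 with array weights, 221 with a per-feature test without moderation, 627 against P7 replicates 1 and 2, 111 against replicates 3 and 4, and 207 to 478 on leaving out single arrays. For the difference between steps, 3828 features became 533 with the covariate, genes higher in the exposed step 98 with it and 623 with control P14 replicates 4 and 5 alone, and genes lower 25 with it and 490 against P7 replicates 1 and 2. The share of higher features among the calls of the exposed step was 62.0%, and 77.2% with the covariate, 75.0% against P7 replicates 3 and 4 and 58.0% after quantile normalization; for the difference it was 60.1%, and 40.3% with the covariate. With the replicate block 422 features were called in the exposed step, 162 genes rising and 27 falling, and 701 genes were higher in the difference. The replicate numbers did not pair the arrays: same-numbered P7 and P14 arrays deviated together with correlations of -0.04 to 0.02. No named gene's called step reversed after quantile normalization, with only the compared groups, against either P7 pair or on leaving out single arrays. Under the other alternatives only genes called in both fits were compared for direction, and none of them reversed. A reversal that also lost its call would not be seen there. The cause of these changes was not tested.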
